A study of Mus musculus with 8 samples.

Results

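The genes described here are 10 endothelial genes, picked by symbol from the deposited table of 55401 gene records: Stab1, Stab2, Kdr, Flt4, Eng, Cdh5, Pecam1, Emcn, Plvap and Egfl7. All 10 were found, each as a single record, and all 10 passed the filter on low counts. The libraries are bulk RNA-seq of sorted haematopoietic stem cells (HSCs), the self-renewing source of every blood lineage. Each sample held about 3000 such cells from the marrow of C57BL/6 mice, 8 weeks of age. The control group (Nynrin fl/fl, labelled wild type) and the Nynrin CKO group (Nynrin fl/fl with Tie2-Cre) held 4 libraries each, and both carried the floxed alleles. Tie2 (Tek) is expressed by endothelium as well as by HSCs and their progeny, so deletion is not limited to HSCs, and controls carried no Cre. Nothing in the labels ties each library to its own mouse. The p-values therefore weigh a spread between libraries that may in part be technical.

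Endothelial cells line blood and lymph vessels, and in the marrow they form the sinusoids beside which many HSCs lie. Blood stem cells arise in the embryo from endothelium, and the lineages share several surface proteins throughout life. Eng, Pecam1, Emcn and Egfl7 are known in HSCs as well as in vessels. Stab2, Plvap, Cdh5, Kdr and Flt4 are used in adult tissue mainly to mark endothelium, Stab2 and Flt4 with emphasis on sinusoids and lymphatic vessels. Stab1 is shared by sinusoidal endothelium and some macrophages.

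No member was called between the groups by edgeR, where 2.22% of the 27573 tested genes were called higher and 0.588% lower. The groups overlapped for all 10, while 9.55% of tested genes had every Nynrin CKO library above every control and 4.82% had them below. The most visible difference lay between libraries. Levels of Stab2, Plvap, Stab1, Flt4 and Egfl7 in Nynrin CKO 3 and 4 were well above every other library, while Nynrin CKO 1 and 2 lay among the controls. Cdh5 and Kdr, which define endothelium in most sorts, were low in all 8 libraries, and Nynrin CKO 3 and 4 lay within their control ranges. Against control 4 alone, the lowest library for both, Nynrin CKO 3 and 4 were higher (log2 fold changes 1.46 for Cdh5 and 1.83 for Kdr). The part of background reads in these low control ranges was not tested. Eng and Pecam1 varied little.

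Total counts ran from 36942835 to 56437299 per library. Libraries fell into sets that cut across the groups: 1501 receptor genes of smell (olfactory and vomeronasal) together took 124 to 195 CPM in control 4 and Nynrin CKO 3 and 4, and 798 to 1494 CPM elsewhere. Genes with any count numbered 28914 to 31344 in the former libraries and 40240 to 44562 in the latter. CPM are counts relative to the library total and, from the HSC markers on, carry TMM scaling factors. Xist was at 4811 and 4458 CPM in controls 3 and 4 and at 5.70 to 12.4 CPM in the other 6 libraries. Mitochondrial reads were 9.90% and 9.86% of counts in Nynrin CKO 3 and 4 and 5.98% to 7.44% elsewhere. HSC markers were present in every library. Kit, the stem cell factor receptor, reached 2330 and 2359 CPM in Nynrin CKO 3 and 4, against 1302 to 1627 CPM elsewhere. Over the 8 libraries, the transcription factor gene Hlf was at 90.5 to 144 CPM and Procr, a surface marker of HSCs, at 34.4 to 64.3 CPM. Nynrin itself was at 41.2, 47.4, 29.9 and 30.4 CPM in controls 1 to 4, and at 12.7, 12.3, 8.23 and 8.21 CPM in Nynrin CKO 1 to 4. The Nynrin groups did not overlap (log2 fold change -1.85, standard error 0.22, edgeR adjusted p = 0.0345). Leaving out 1 library moved that adjusted p to between 0.024 and 0.123, with the call lost without control 1 or 2 or any 1 of the Nynrin CKO libraries. With the similar libraries summed (Nynrin CKO 1 with 2, and 3 with 4), it was 0.402.

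The promoters of the stabilins and of Eng are shown because Stab1 and Stab2 stood above every control in the same 2 libraries and Eng did not stand apart there. RefSeq windows (GRCm38.p6, the assembly behind mm10) were found for 7 members. In 5 of them the 250 bases before the start reached outside the deposited gene record, and only the part outside it is given. Capitals mark GGAAG on either strand, the core that ETS factors such as ERG and FLI1 recognise.
Stab1, chr14:31168642-31168891, minus strand: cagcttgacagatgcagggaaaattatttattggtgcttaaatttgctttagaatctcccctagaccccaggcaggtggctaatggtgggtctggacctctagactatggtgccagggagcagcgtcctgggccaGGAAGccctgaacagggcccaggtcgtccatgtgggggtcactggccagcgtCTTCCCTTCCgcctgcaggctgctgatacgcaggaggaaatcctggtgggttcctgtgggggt
Stab2, chr10:87008026-87008192, minus strand: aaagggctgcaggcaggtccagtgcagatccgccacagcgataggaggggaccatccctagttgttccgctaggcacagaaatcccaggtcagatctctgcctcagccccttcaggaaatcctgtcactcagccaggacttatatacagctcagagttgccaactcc
Eng, chr2:32646345-32646594, plus strand: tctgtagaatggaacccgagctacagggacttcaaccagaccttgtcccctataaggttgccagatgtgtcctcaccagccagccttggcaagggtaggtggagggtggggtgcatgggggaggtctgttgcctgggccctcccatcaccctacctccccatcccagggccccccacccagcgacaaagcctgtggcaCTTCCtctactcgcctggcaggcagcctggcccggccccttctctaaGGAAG
GGAAG occurred 3 times in the 250 bases of Stab1, 2 times in the 250 of Eng and 0 times in the 167 of Stab2. It occurred 2 times in the 239 bases of Emcn and once in the window of Kdr. Of all RefSeq windows in the table, 64.1% held it in 250 bases and 48.1% in 167, each at least once. AGATAA, the letters that factors such as GATA2 read, occurred in none of the 5 on either strand, against 9.99% of windows of 250 bases. ACAAT, read by SOX factors and held by 27.7% of windows, occurred once, in Emcn. CANNTG (the E-box) occurred 3 times in Stab1, 0 times in Stab2 and once each in Eng, Emcn and Kdr, against 66.2% of windows of 250 bases that held it at least once. GGAAG can share its last letters with AGATAA where the 2 adjoin, and a match is a description of the sequence only.

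Stab2 encodes stabilin-2, the scavenger receptor by which sinusoidal endothelium clears hyaluronan from blood. The gene (ENSMUSG00000035459) lies on chromosome 10 from 86841198 to 87008025 on the minus strand. Its levels were 2.96, 15.9, 19.5 and 15.0 CPM in controls 1 to 4 and 6.74, 8.20, 83.8 and 80.1 CPM in Nynrin CKO 1 to 4. Nynrin CKO 3 and 4 stood above every control, and Nynrin CKO 1 and 2 lay below controls 2 to 4, so the groups overlapped. The group means of Stab2 were 13.3 ± 7.19 and 44.7 ± 43.0 CPM (SD, n = 4 each). Between the groups, the log2 fold change of Stab2 was 1.74 (standard error 0.87) and did not pass in edgeR (adjusted p = 0.328) or in the two-sided exact permutation test (p = 0.314 on log2(CPM + 1)). The controls alone spanned 6.59 times, with control 1 the lowest of all 8 libraries. Gm16270, a pseudogene record inside Stab2 on the other strand, is a separate record whose own total was 7.29% of that of Stab2, with 51 and 54 counts in Nynrin CKO 3 and 4, 19 in control 4 and 73 to 145 elsewhere.

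Stab1 encodes the related receptor stabilin-1. It lies on chromosome 14 from 31139013 to 31168641 (ENSMUSG00000042286), and its record shares 112 bases at its end with Nt5dc2 on the other strand. Stab1 was at 2.19, 5.88, 5.50 and 2.56 CPM in controls 1 to 4, and the Nynrin CKO libraries, in the same order, had 2.81, 2.86, 11.4 and 12.2 CPM. Here too Nynrin CKO 3 and 4 were above all controls and the other 2 Nynrin CKO libraries were within the control range. This gave Stab1 a log2 fold change of 0.85 (standard error 0.57), not past the threshold in edgeR (adjusted p = 0.494) or by exact permutation (p = 0.286). Nt5dc2 had levels of 14.8 and 14.7 CPM in Nynrin CKO 3 and 4, against 7.10 to 9.48 CPM elsewhere, so it was high where Stab1 was, and its part in the Stab1 counts was not tested. Per kilobase of exon, Stab2 exceeded Stab1 1.59 to 6.89 times in controls, 2.82 and 3.36 times in Nynrin CKO 1 and 2, and 8.63 and 7.75 times in Nynrin CKO 3 and 4.

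Plvap encodes the protein of the diaphragms that span endothelial fenestrae and caveolae. The gene (ENSMUSG00000034845) lies on chromosome 8 from 71497765 to 71511752. It measured 1.01, 4.70, 5.97 and 4.10 CPM in controls 1 to 4 and 3.10, 4.47, 21.5 and 23.7 CPM in Nynrin CKO 1 to 4. The pattern was that of Stab2: control 1 lowest, Nynrin CKO 1 and 2 within the control range, Nynrin CKO 3 and 4 above it. Plvap did not pass the test (log2 fold change 1.74, standard error 0.72, unadjusted p = 0.0389, adjusted p in edgeR 0.230, exact permutation p = 0.257). Plvap shares its 3' part with Gtpbp3 on the other strand, a separate record whose own total was 188% of that of Plvap. Gtpbp3 was at 11.9 to 20.3 CPM, with 16.2 and 16.4 CPM in Nynrin CKO 3 and 4, inside the control range of 15.9 to 20.3 CPM.

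**Figure D1:**
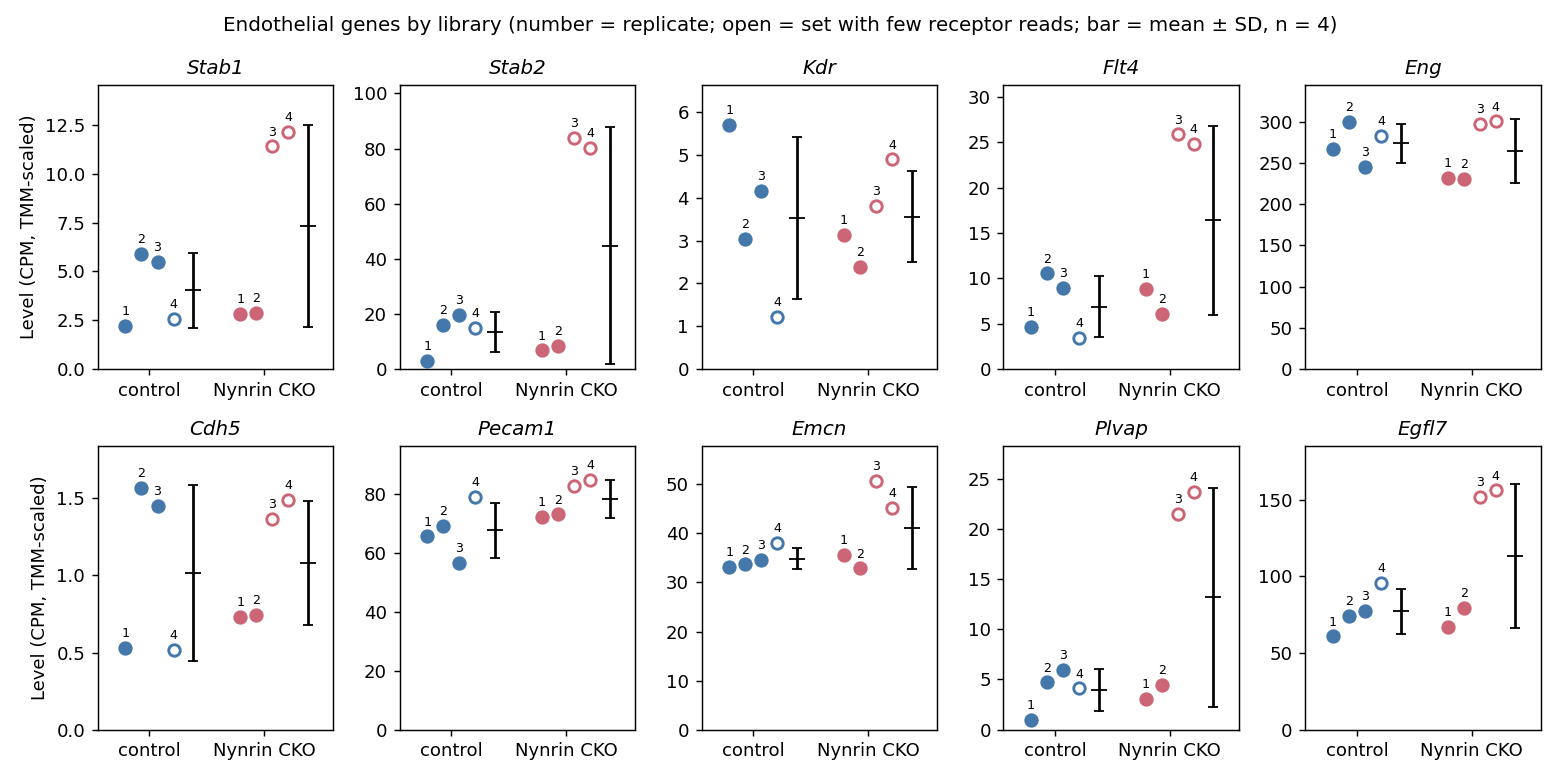
Level of each of the 10 genes in each library (CPM scaled by TMM factors, axis from 0), with replicate numbers beside the points, open points for the 3 libraries with few receptor reads and black bars for the mean ± SD of 4 libraries. Stab2 is at 83.8 and 80.1 CPM in Nynrin CKO 3 and 4, against 2.96 to 19.5 CPM in the other 6 libraries, and the groups overlap in every panel.

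The vascular growth factor receptors differed from each other. Flt4 encodes VEGFR3, the receptor for VEGF-C that marks lymphatic and sinusoidal endothelium, and lies on chromosome 11 from 49609263 to 49652739 (ENSMUSG00000020357). Flt4 was at 4.60, 10.5, 8.94 and 3.45 CPM in controls 1 to 4, and the Nynrin CKO libraries, in the same order, had 8.80, 6.08, 25.9 and 24.8 CPM. Again only Nynrin CKO 3 and 4 were above the controls. Between the groups, the log2 fold change of Flt4 was 1.25 (standard error 0.52), with an unadjusted p of 0.0401, and it did not pass in edgeR (adjusted p = 0.234) or in the exact permutation test (p = 0.171).

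Kdr encodes VEGFR2, the main receptor for VEGF-A on vessels, and lies on chromosome 5 from 75932827 to 75978458 (ENSMUSG00000062960). It was at 5.70, 3.04, 4.16 and 1.22 CPM in controls 1 to 4, and the Nynrin CKO libraries, in the same order, had 3.14, 2.39, 3.81 and 4.90 CPM. Every Nynrin CKO value fell within the control range. The highest Kdr library was control 1, in which Stab1, Stab2 and Plvap were at their lowest. This gave Kdr a log2 fold change of 0.01 (standard error 0.44), not past the threshold in edgeR (adjusted p = 0.996) or by exact permutation (p = 0.857). Per kilobase of exon, Flt4 over Kdr ran from 0.884 to 3.81 in controls and was 3.07, 2.79, 7.45 and 5.56 in Nynrin CKO 1 to 4.

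Cdh5 encodes VE-cadherin, the adhesion protein of endothelial junctions, and had the lowest mean per kilobase of exon in controls, within the range of Kdr. It lies on chromosome 8 from 104101625 to 104144511 (ENSMUSG00000031871). Raw counts were 22, 66, 62 and 27 in controls 1 to 4 and 33, 36, 62 and 62 in Nynrin CKO 1 to 4, or 0.515 to 1.57 CPM in all. An antisense record, Gm29682, held 11 and 8 counts in Nynrin CKO 1 and 2 and 0 elsewhere. Controls 2 and 3 were as high as Nynrin CKO 3 and 4, and the groups overlapped fully. Cdh5 did not pass the test (log2 fold change 0.09, standard error 0.55, adjusted p in edgeR 0.960, exact permutation p = 0.629). Per kilobase of exon, Stab2 exceeded Cdh5 by 29.5 and 25.8 times in Nynrin CKO 3 and 4, by 2.68 to 14 times in controls, and by 4.44 and 5.31 times in Nynrin CKO 1 and 2. Unlike Stab2, Cdh5 in Nynrin CKO 3 and 4 (1.36 and 1.49 CPM) stayed within the control range, though above control 4, the lowest library at 0.515 CPM. That range is near the floor and rests on controls that differ in stray reads. The 1501 receptor genes took 966 to 1494 CPM in controls 1 to 3 and 195 CPM in control 4. How far such background makes up the Cdh5 levels of controls 1 to 3 was not tested.

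Pecam1 encodes CD31, an adhesion protein of endothelium, platelets and many blood cells, HSCs among them. It lies on chromosome 11 from 106654217 to 106750628 (ENSMUSG00000020717). Pecam1 was at 65.6, 69.1, 56.5 and 79.1 CPM in controls 1 to 4, and the Nynrin CKO libraries, in the same order, had 72.2, 73.0, 82.7 and 84.6 CPM. Nynrin CKO 3 and 4 were again the highest, but control 4 came close to them. Between the groups, the log2 fold change of Pecam1 was 0.21 (standard error 0.12) and did not pass in edgeR (adjusted p = 0.417) or in the exact permutation test (p = 0.114).

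Eng encodes endoglin, the co-receptor for TGF-beta and BMP ligands, and was the most abundant member. It lies on chromosome 2 from 32646595 to 32682658 (ENSMUSG00000026814). Eng was at 267, 301, 245 and 283 CPM in controls 1 to 4, and the Nynrin CKO libraries, in the same order, had 232, 231, 297 and 301 CPM. Nynrin CKO 1 and 2 were the 2 lowest libraries, and 3 and 4 were level with the highest controls. This gave Eng a log2 fold change of -0.05 (standard error 0.13), not past the threshold in edgeR (adjusted p = 0.90) or by exact permutation (p = 0.686). Eng overlaps the end of Fpgs by 50 bases, and Fpgs, a separate record with a total 12.8% of that of Eng, was at 32.1 to 37.4 CPM in all 8 libraries.

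Emcn encodes endomucin, a sialomucin of venous and sinusoidal endothelium that is also present on HSCs. It lies on chromosome 3 from 137341067 to 137432185 (ENSMUSG00000054690). Levels were 33.2, 33.7, 34.6 and 38 CPM in controls 1 to 4 and 35.7, 32.9, 50.8 and 45.2 CPM in Nynrin CKO 1 to 4. The controls were close together, Nynrin CKO 1 and 2 were level with them, and 3 and 4 were above. Emcn did not pass the test (log2 fold change 0.24, standard error 0.15, adjusted p in edgeR 0.459, exact permutation p = 0.257).

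Egfl7 encodes a secreted factor of endothelium, and an intron of it holds miR-126, a microRNA of vessels and of quiescent HSCs. The gene (ENSMUSG00000026921) lies on chromosome 2 from 26580014 to 26592684. Egfl7 was at 60.8, 74.2, 77.5 and 95.8 CPM in controls 1 to 4, and the Nynrin CKO libraries, in the same order, had 66.9, 79.2, 152 and 156 CPM. Nynrin CKO 3 and 4 were 1.6 times control 4, the highest control, on average, and the other 2 lay within the control range. Between the groups, the log2 fold change of Egfl7 was 0.55 (standard error 0.28) and did not pass in edgeR (adjusted p = 0.339) or in the exact permutation test (p = 0.257). The Mir126a record held 1 count in each library, so these libraries give no level for the microRNA. Its mature form in RefSeq is shown with the seed, bases 2 to 8, in capitals, to place it within the host gene at chr2:26591402-26591423 on the plus strand.
miR-126a-3p: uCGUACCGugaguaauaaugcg

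At an unadjusted p under 0.05, 2 members were higher (Plvap and Flt4) and 0 lower, against 13.2% and 5.78% of all tested genes. DESeq2 called 0 of the 9 members to which it gave an adjusted p (Cdh5 had none), and limma-voom 0 of 10. The median log2 fold change of the 10 was 0.40, and that of all tested genes was -0.09. In 7 of 10 members, Nynrin CKO 3 and 4 were both above every control (Stab1, Stab2, Flt4, Plvap, Egfl7, Pecam1 and Emcn), which held for 22.1% of tested genes. In 0 of 10 were Nynrin CKO 1 and 2 both above every control, which held for 18.5%. This count was made after the values were seen. The 2 libraries of each pair resembled each other, with ratios of 1.01 to 1.29 between 3 and 4 and 1.01 to 1.45 between 1 and 2 over the members.

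Within the library sets the fold changes parted. In the set with more receptor reads (Nynrin CKO 1 and 2, controls 1 to 3), the log2 fold changes were -0.78 for Stab2 (standard error 0.78), -0.68 for Stab1 (0.38), -0.04 for Plvap (0.64) and -0.11 for Flt4 (0.32). The same set gave -0.64 for Kdr, -0.68 for Cdh5, -0.23 for Eng, 0.19 for Pecam1, 0.02 for Emcn and 0.04 for Egfl7, and no member passed. In the set with few (Nynrin CKO 3 and 4, control 4), they were 2.45 for Stab2 (standard error 1.13), 2.20 for Stab1 (0.55), 2.46 for Plvap (0.94) and 2.87 for Flt4 (0.49). There they were 1.83 for Kdr, 1.46 for Cdh5, 0.68 for Egfl7, 0.34 for Emcn and 0.08 for both Eng and Pecam1. That set has 1 control, so no test is given for it. Control 4 shares the low receptor reads of Nynrin CKO 3 and 4 but not their levels of Stab2 or Plvap, while it is the lowest library for Kdr, Cdh5 and Flt4. The median of the 10 members was -0.17 in the former set and 1.65 in the latter, beside -0.04 and 0.06 for all tested genes.

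**Figure D2:**
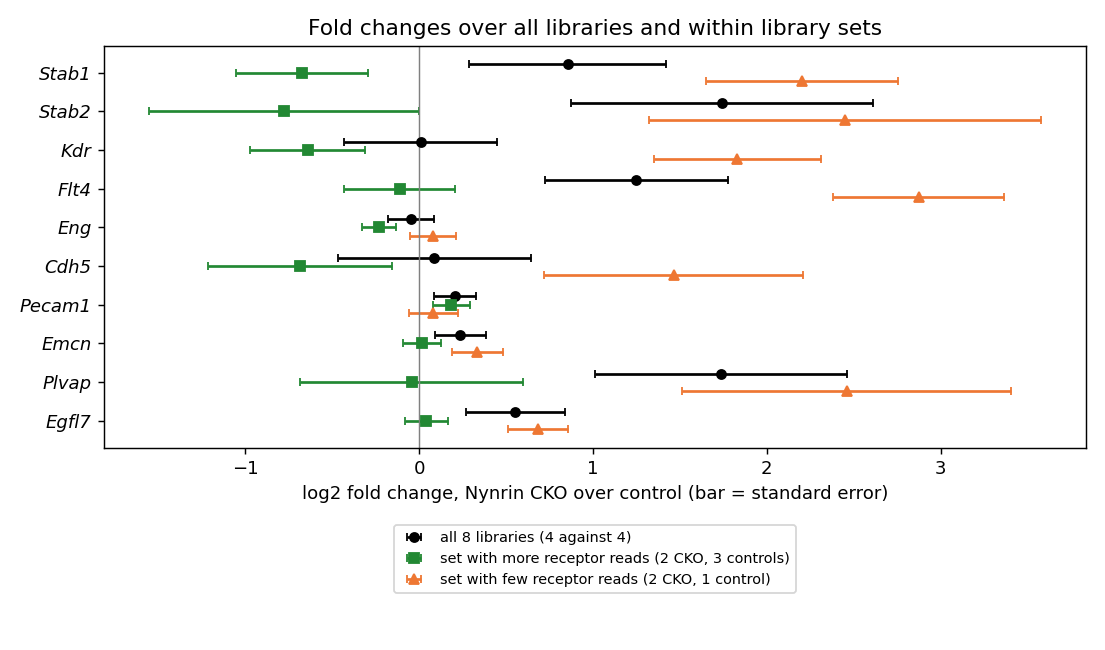
Log2 fold change of each gene, Nynrin CKO over control, with its standard error, over all 8 libraries (black circles), within the 5 libraries with more receptor reads (green squares) and within the 3 with few (orange triangles, 1 control). Stab2 is at 1.74, -0.78 and 2.45 in that order, and Eng and Pecam1 lie between -0.23 and 0.21 in all 3.

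Compared per kilobase of exon, the members spanned a wide range of levels in controls. Eng was first at 67.7 ± 5.77 CPM per kilobase, then Egfl7 at 21.5 ± 4.03, Pecam1 at 10.8 ± 1.5 and Emcn at 6.45 ± 0.403 (SD, n = 4 each). The library ranges of these 4 did not overlap with their neighbours in the order. Below them came Plvap at 1.98 ± 1.06, Stab2 at 1.52 ± 0.821, Flt4 at 0.836 ± 0.412, Stab1 at 0.392 ± 0.187, Kdr at 0.391 ± 0.209 and Cdh5 at 0.242 ± 0.136 CPM per kilobase. Each of these 6 overlapped with the next in its range over controls, so their order there is not settled. The 4 abundant members are those known in HSCs, and the 6 low ones are those used mainly to mark endothelium or, for Stab1, macrophages too. In bulk RNA, fewer cells of a type and less RNA per cell cannot be told apart.

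Other endothelial genes were taken from a list of 31, all of which were tested. Of these 3 rose (Tek, Icam2 and Ly6c1) and none fell, where 2.22% and 0.588% of all tested genes were called, and the list's median log2 fold change was 0.20, beside -0.09 for all. Tek, the angiopoietin receptor whose promoter drives the Cre, was at 25.1 to 42.4 CPM in controls and rose to 145 to 163 CPM in Nynrin CKO (log2 fold change 2.10, edgeR adjusted p = 0.00620). With Nynrin CKO 1 and 2 summed, and 3 and 4 summed, Tek no longer passed (edgeR adjusted p = 0.107). Only the Nynrin CKO group carried Tie2-Cre, so loss of Nynrin and presence of the transgene cannot be told apart for Tek. Whether reads from the transgene enter the Tek count was not tested. Icam2, an adhesion ligand of endothelium and leukocytes, rose from 61.5 ± 3.40 to 93.6 ± 7.34 CPM in Nynrin CKO (SD, n = 4; log2 fold change 0.60, edgeR adjusted p = 0.0372). Ly6c1, a surface antigen of endothelium and myeloid cells, rose from 1.04 ± 0.392 to 3.40 ± 0.560 CPM (SD, n = 4; log2 fold change 1.70, edgeR adjusted p = 0.0442), a value left uncertain by near-identical Ly6 genes whose reads the counting could split. These 3 called genes were above every control in all 4 Nynrin CKO libraries. So was Vcam1, which was not called (log2 fold change 1.14, edgeR adjusted p = 0.0920). That made 4 of the 31, against 9.55% of all tested genes. At an unadjusted p under 0.05 in edgeR, 8 of the 31 were higher and 3 lower, against 13.2% and 5.78% of all tested genes. The calls of Icam2 and Ly6c1 were each lost on leaving out any 1 library other than control 4, with adjusted p up to 0.203 and 0.168.

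In 13 of the 31, Nynrin CKO 3 and 4 were both above every control, which held for 22.1% of all tested genes. Among such genes chosen after their values were seen, Fabp4, a lipid carrier of capillary endothelium, reached 21.3 and 18.5 CPM there against 2.19 to 7.11 CPM elsewhere. Mmrn2, an endothelial matrix protein, was at 4.05 and 3.22 CPM there and at 0.403 to 1.06 CPM elsewhere. Others of the list did not share this: Lyve1, a hyaluronan receptor of lymphatic and sinusoidal endothelium, had no count in Nynrin CKO 3 and 4 and 0.354 to 0.668 CPM elsewhere. The latter values are near the floor, at 16 to 35 counts per library, and how far they are background reads was not tested. Tie1 was at 64.0 and 64.4 CPM there and at 72.3 to 141 CPM elsewhere. Adgrl4, an abundant gene of the list, was at 427 and 429 CPM there and at 687 to 856 CPM elsewhere.

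**Figure D3:**
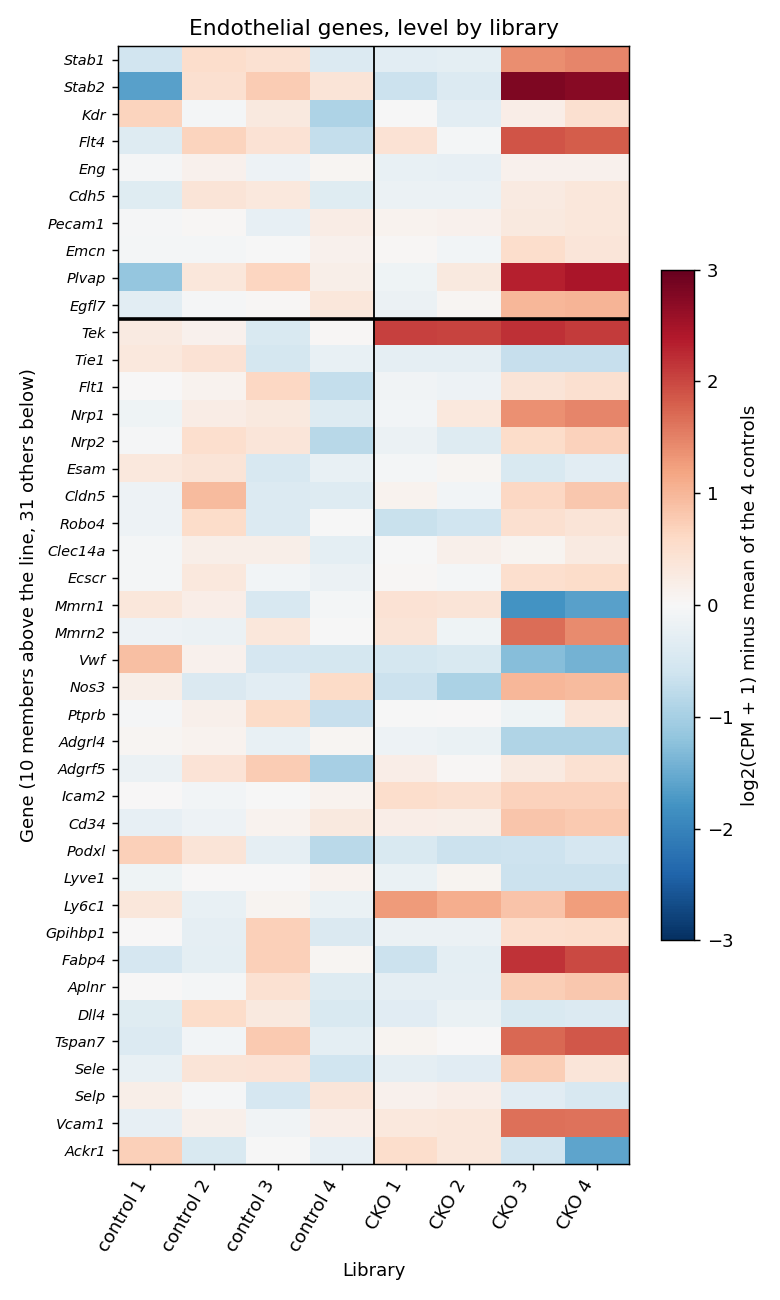
Level of the 10 members (above the line) and 31 other endothelial genes (below) in each library, as log2(CPM + 1) minus the mean of the 4 controls, red for higher and blue for lower. Stab2, Plvap and Flt4 are red in Nynrin CKO 3 and 4 and pale or blue elsewhere, and Tek is red in all 4 Nynrin CKO libraries.

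The pathways around the receptors were read from fixed lists. In the VEGF list none of 13 tested genes passed (Kdr and Flt4 included), where 2.22% of all tested genes were called higher and 0.588% lower. At an unadjusted p under 0.05, 4 were higher and 1 lower (13.2% and 5.78% of all tested genes). The median was 0.20, beside -0.09 for all tested genes. Nrp1, the neuropilin co-receptor of VEGF, had 7.38 and 7.97 CPM in Nynrin CKO 3 and 4, against 1.49 to 3.03 CPM elsewhere (log2 fold change 1.15, edgeR adjusted p = 0.210). Sh2d2a, an adaptor that binds activated VEGFR2, had a log2 fold change of 1.17 (edgeR adjusted p = 0.197). Among ligands, named after their values were seen, Vegfa was at 0.242 to 0.997 CPM, while Vegfc, the ligand of Flt4, was at 12 to 14.1 CPM in controls, and in Nynrin CKO at 7.82 to 12.2 CPM.

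In the endoglin list, 1 of 18 tested genes rose and none fell (2.22% and 0.588% of all tested genes), with a median of 0.26, beside -0.09 for all. That gene was Id2, a target of BMP signalling and an inhibitor of helix-loop-helix factors, at 6.18 to 7.77 CPM in controls and at 11.5, 13.7, 24.1 and 23.0 CPM in Nynrin CKO 1 to 4 (log2 fold change 1.43, edgeR adjusted p = 0.0394). Id2 is also used widely in lymphoid and myeloid cells, and its call was lost on leaving out any 1 library other than control 4, with adjusted p up to 0.166. Beyond the naming rule, Acvrl1, the receptor that endoglin partners in endothelium, was at 0.515 to 1.85 CPM in controls, and in Nynrin CKO at 1.30 to 2.35 CPM.

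In the junction list none of 16 genes passed (Cdh5 and Pecam1 included), where 2.22% of all tested genes were called higher and 0.588% lower. At an unadjusted p under 0.05, 1 was higher and 2 lower (13.2% and 5.78% of all tested genes). The median was -0.05, beside -0.09 for all. Ctnnd1, the p120 catenin that holds cadherins at the surface, was at 48.3 to 81.6 CPM in controls, and in Nynrin CKO at 25.1 to 46.9 CPM (log2 fold change -0.90, edgeR adjusted p = 0.0730). F11r, the junctional adhesion molecule A, had a log2 fold change of 0.52 (edgeR adjusted p = 0.181). Among 16 tested endothelial transcription factors none passed (2.22% of all tested genes were called higher and 0.588% lower). None had an unadjusted p under 0.05 (13.2% and 5.78% of all), and the median was -0.12, beside -0.09 for all. The smallest p there belonged to Sox7 (log2 fold change -1.22, edgeR adjusted p = 0.308) and Hhex (0.26, edgeR adjusted p = 0.357). Also outside that rule, Erg, a factor that endothelium and HSCs share, was at 63.9 to 97.5 CPM in controls and at 71.9, 75.0, 109 and 109 CPM in Nynrin CKO 1 to 4.

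Several markers of other cells were also high in Nynrin CKO 3 and 4. The 10 members summed to 444 to 522 CPM in controls, 432 and 441 in Nynrin CKO 1 and 2, and 730 and 734 CPM in 3 and 4. The 14 macrophage genes summed to 112 to 143 CPM in controls, 154 and 150.2 in Nynrin CKO 1 and 2, and 301 and 305 CPM in 3 and 4, with 12 of 14 above every control in both of the latter, which held for 22.1% of all tested genes. Nynrin CKO 1 and 2 were both above every control in 6 of the 14 (18.5% of tested genes), and all 4 Nynrin CKO libraries were in 6 (9.55%). Of the 14, 2 were called higher and 0 lower (2.22% and 0.588% of all tested genes). Marco, a defining marker of that list, had no count in Nynrin CKO 3 and 4, and C1qa was at 18.1 and 18.8 CPM there against 5.62 to 6.98 CPM in controls. The 10 genes of the mature blood list summed to 61.3 to 128 CPM in controls, 178 and 175 in Nynrin CKO 1 and 2, and 686 and 703 CPM in 3 and 4. In 6 of these 10, Nynrin CKO 3 and 4 were both above every control, against 22.1% of all tested genes. Nynrin CKO 1 and 2 were both above every control in 6 as well (18.5% of tested genes), and all 4 Nynrin CKO libraries were in 4 (9.55%). No gene of this list was called, where 2.22% of all tested genes were called higher and 0.588% lower. Elane, the neutrophil elastase gene, made up most of the sum in Nynrin CKO 3 and 4, at 402 and 421 CPM. The sum there thus largely follows 1 gene. All 10 genes of the list had a positive log2 fold change, against 44.5% of all tested genes, with a median of 1.11, beside -0.09 for all. The part of mature cells in these levels was not tested.

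The 12 HSC genes reported here summed to 3035 to 3428 CPM in controls, 3171 and 3095 in Nynrin CKO 1 and 2, and 4781 and 4790.0 CPM in 3 and 4. Abundant genes such as Kit and Cd34 weigh most in that sum. At an unadjusted p under 0.05 in edgeR, 2 of the 12 were higher and 5 lower, against 13.2% and 5.78% of all tested genes. None was called. In 3 of the 12, Nynrin CKO 3 and 4 were both above every control, which held for 22.1% of all tested genes. Cd34, a surface marker of progenitors and endothelium, was one of them, at 1563 and 1514 CPM there and at 730.03 to 1066 CPM elsewhere. Cd48, which stem cell gates commonly exclude, had 196 and 185 CPM in Nynrin CKO 3 and 4, against 18.6 to 37.1 CPM elsewhere. Mecom, a transcription factor of the most immature HSCs, had 91.1 to 107 CPM in the controls, 69.6 and 66.6 in Nynrin CKO 1 and 2, and 34.3 and 31 in Nynrin CKO 3 and 4. The 10 stromal genes summed to 54.2 to 83.9 CPM in controls, 86.4 and 98.5 in Nynrin CKO 1 and 2, and 117 and 112 CPM in 3 and 4. In 1 of the 9 tested, Nynrin CKO 3 and 4 were both above every control, against 22.1% of all tested genes. Bglap was at 0 counts in all 4 Nynrin CKO libraries. The 10 megakaryocyte genes ran the other way, at 267 to 643 CPM in controls, 602 and 624 in Nynrin CKO 1 and 2, and 229 and 232 CPM in 3 and 4. In 0 of these 10 were Nynrin CKO 3 and 4 both above every control, against 22.1% of all tested genes. The part of these markers, and of the mitochondrial share, in the levels of the members was not tested.

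**Figure D4:**
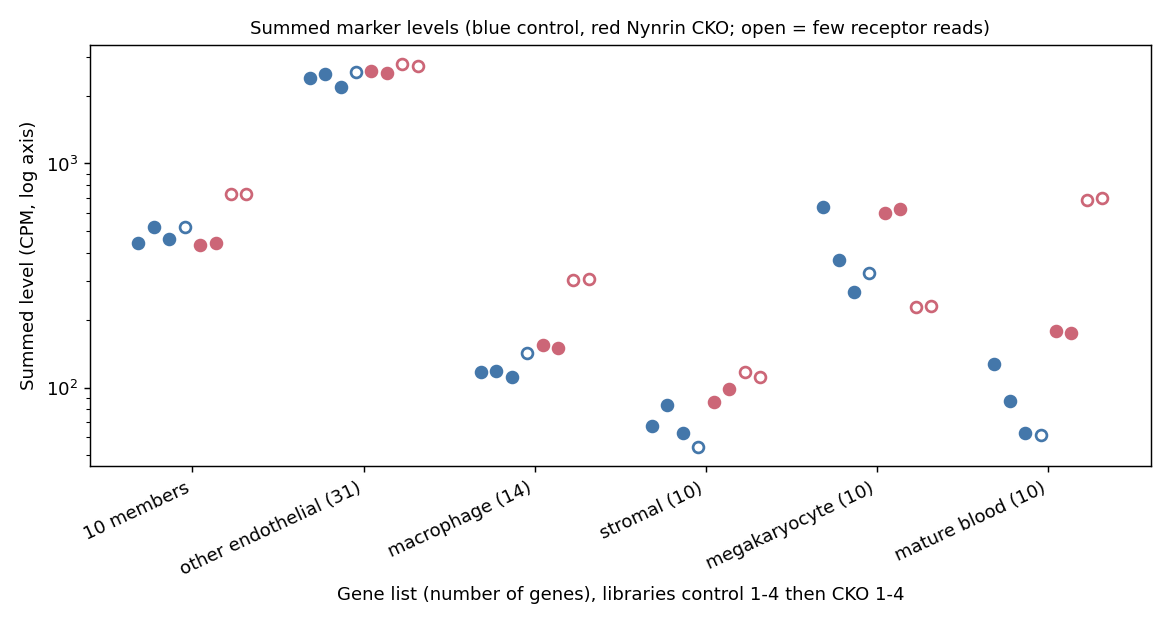
Summed level of each marker list in each library (CPM, log axis), controls 1 to 4 in blue and Nynrin CKO 1 to 4 in red, with open points for the 3 libraries with few receptor reads. Nynrin CKO 3 and 4 stand above the other 6 libraries for every list but the megakaryocyte list, for which they stand below. The gap is narrow for the other endothelial list, at 2783.5 and 2729.1 CPM against at most 2583.1 CPM elsewhere.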

How the data were processed

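The deposited table holds raw counts, 1 whole number per gene and library, as the authors made it per the file headers. The submitters' processing notes name mm10. Aligner, counter and strand setting: not given in the sources used here, so reads of overlapping records on opposite strands cannot be told apart. All 8 libraries entered 1 fit in edgeR 4.0.16 (R 4.3.3). The filter filterByExpr kept 27573 genes, and a robust quasi-likelihood test on TMM-scaled counts was adjusted by Benjamini-Hochberg over all of them, with a threshold of 0.05. CPM values carry the same TMM factors. Exact permutation tests used all 70 assignments of 8 libraries on log2(CPM + 1), unadjusted, for which the smallest possible p is 0.0286. Exon lengths are unions of GENCODE M21 exons. A receptor level of 300 CPM divides the library sets. A single model with each group split by set gave the values within sets, and it assumes that control 4 varies like the other libraries. Gene lists were written from general knowledge, and from each the 4 passing genes with the smallest p, or 2 where none passed, were named, beside all members, Nynrin and Tek. 1 gene of the HSC marker list is not reported here. Members, lists and library sets were chosen with earlier results of these data known. The fit was tested on simulated data. Alternatives were other scaling, filters, tools and terms, and libraries left out, with DESeq2 1.42.0 and limma 3.58.1 among the tools. Depth was 36942835 to 56437299 counts per library, at which Cdh5 had 22 to 66 counts and Eng 10492 to 14812.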

Additional observations from a re-analysis of the deposited data

How the results depend on the processing

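No member was called higher or lower (0 and 0) under any of the 23 alternatives, except that DESeq2 gave Cdh5 no adjusted p. Nynrin no longer passed with the similar libraries summed (edgeR adjusted p = 0.402) or with the replicate block (0.0501), nor did Tek (0.107 and 0.0669). The fixed endothelial lists without the members (83 genes tested in the main fit) had 4 called higher and 0 lower, where 2.22% and 0.588% of all tested genes were called. They gave 1 higher with RLE factors, 2 with total counts, 2 without a filter and 1 with the Xist class as a term. With the similar Nynrin CKO libraries summed they gave 0 higher, and with the transcript length trend removed 1. Without both Nynrin CKO 3 and 4, an alternative chosen after seeing the data, they gave 1. With DESeq2 these lists gave 7 higher and 4 lower. They gave 1 lower with at least 1 CPM in 4 libraries, 1 lower with the library set as a term and 3 lower in the set with more receptor reads alone. Leaving out 1 library gave 1 to 4 higher and 0 lower. The replicate block gave 0 higher. Shares of all tested genes called under these alternatives are not given, so the counts cannot be set against them. Replicate numbers did not pair the samples: same-numbered libraries had correlations of deviations of 0.2, 0.239, -0.358 and 0.465.

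Signs of members, and of Nrp1 and Hhex among the other named genes, turned under several settings. Without both Nynrin CKO 3 and 4, the log2 fold change was -0.52 for Stab1, -0.87 for Stab2, -0.0945 for Plvap, -0.13 for Egfl7, -0.0707 for Emcn, -0.47 for Cdh5 and -0.36 for Kdr. In the set with more receptor reads alone it was -0.68 for Stab1, -0.78 for Stab2, -0.0479 for Plvap, -0.12 for Flt4, -0.0196 for Nrp1, -0.69 for Cdh5 and -0.65 for Kdr. With total counts, where the median of all tested genes was -0.34, it was -0.066 for Pecam1, -0.0584 for Emcn, -0.25 for Cdh5, -0.31 for Kdr and -0.0199 for Hhex. Eng turned positive, at 0.0036 without control 2, 0.0214 and 0.0213 without Nynrin CKO 1 or 2, and 0.0205 with the length trend removed. Cdh5 was -0.0321 with upper-quartile factors, -0.02 with at least 1 CPM in 4 libraries, -0.13 with limma-voom, and -0.118 to -0.0286 without control 1, control 4, Nynrin CKO 3 or Nynrin CKO 4. Kdr was -0.0256 with RLE factors, -0.11 with upper-quartile factors, -0.10 with at least 1 CPM in 4 libraries, -0.30 with the Xist class, -0.0311 with libraries summed, -0.0115 with DESeq2, -0.33 with limma-voom, and -0.2629 to -0.0101 without control 2, control 4, Nynrin CKO 3 or Nynrin CKO 4. Over all leave-outs of 1 library, Eng ran from -0.1634 to 0.0214, Cdh5 from -0.118 to 0.381 and Kdr from -0.2629 to 0.3472. The cause was not tested, and none of these values passed. Adjusted p over the alternatives ran from 0.0552 to 0.985 for Plvap and from 0.0711 to 0.975 for Flt4, both lowest with DESeq2. Cdh5, at 22 to 66 counts, had the fewest counts of the members.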
